A study of Mus musculus with 4 samples.

Results

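Genes of lipid handling that the nuclear receptor PPAR alpha is known to induce were followed in the left ventricle of young and aged mice after ischemia and reperfusion (I/R). They are Angptl4, Plin2, Plin4, Plin5, Fitm2, Acot1, Ucp2 and Ucp3, taken by gene symbol, and they are 8 of the 32285 genes in the deposited tables. The 4 libraries were made from left ventricle of male C57BL/6J wild-type mice on a droplet-based Chromium system that counts unique molecular identifiers (UMIs) from the end of each transcript. Young sham and young I/R came from mice of 3 to 5 months, aged sham and aged I/R from mice of 24 to 26 months. The I/R mice had 45 min of ischemia by coronary artery (LAD) surgery and 24 h of reperfusion, while the labels title the others as sham but list them as healthy and unaltered. The labels name no transgene and no drug in any group. The number of mice in a library is not given, nuclear RNA is the labelled molecule although the methods describe cell suspensions, and each condition has 1 library. Conditions were therefore described and not tested, and condition, animals and preparation cannot be told apart in any pair of libraries. Where a gene has 4 values below, they run through the young pair, sham and then I/R, followed by the aged pair in the same way.

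PPAR alpha is a fatty acid-activated transcription factor of heart, liver and muscle that binds DNA together with the retinoid X receptor at repeats of a core motif, AGGTCA. In the heart, which draws most of its energy from fatty acids, its targets cover fatty acid uptake, storage in lipid droplets, oxidation in mitochondria and the switch away from glucose. Lipid droplets are stores of triglyceride coated by perilipins, and uncoupling proteins are carriers of the inner mitochondrial membrane whose genes follow fatty acid supply. Several of these genes also answer to other signals, among them PPAR delta, glucocorticoids and hypoxia.

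The stretches before the start sites of Ucp3, Ucp2 and Plin2 are shown because the uncoupling protein genes are neighbours on chromosome 7 with unlike patterns, and because Ucp3 and Plin2 hold the core motif. RefSeq promoters, which run from 250 bases before to 50 bases after a start, were found for 7 of the 8 genes, and Angptl4 had no entry. Each line gives the 250 bases before the start in GRCm38.p6, from 5′ to 3′ on the strand of the gene, with AGGTCA or its reverse complement TGACCT in capitals. Ucp3 lies on the plus strand (chr7:100472741-100472990), as does Ucp2 (chr7:100493108-100493357), and Plin2 lies on the minus strand (chr4:86670060-86670309).
Ucp3: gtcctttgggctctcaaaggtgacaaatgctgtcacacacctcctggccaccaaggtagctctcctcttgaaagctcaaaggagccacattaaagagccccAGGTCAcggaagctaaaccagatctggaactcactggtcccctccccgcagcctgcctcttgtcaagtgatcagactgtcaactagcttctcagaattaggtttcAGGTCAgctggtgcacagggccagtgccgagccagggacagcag
Ucp2: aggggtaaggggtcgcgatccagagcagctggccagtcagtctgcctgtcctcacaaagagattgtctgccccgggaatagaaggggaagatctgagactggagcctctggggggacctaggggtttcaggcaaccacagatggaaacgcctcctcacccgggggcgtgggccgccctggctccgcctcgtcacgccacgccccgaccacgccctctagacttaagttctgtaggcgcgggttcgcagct
Plin2: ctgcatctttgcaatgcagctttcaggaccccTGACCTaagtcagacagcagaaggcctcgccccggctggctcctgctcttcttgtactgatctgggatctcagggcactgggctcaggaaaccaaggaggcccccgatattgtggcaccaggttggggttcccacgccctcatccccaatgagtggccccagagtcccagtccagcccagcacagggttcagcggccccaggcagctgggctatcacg
Ucp3 held the motif at 2 places, with first bases at -149 and -44 from the start, Plin2 held it once at -218 on the opposite strand, and Ucp2 did not hold these letters in the window. Plin5 has 2 entries and held it once in each, at 14 and at -170, and Plin4, Fitm2 and Acot1 did not hold it. In all, 3 of the 7 matched genes held the motif on either strand, and 16.3% of the 32851 RefSeq promoters did. Exact copies 1 base apart on 1 strand, the arrangement known for PPAR, were in 13 of all promoters (0.0396%) and in 0 of these. Exact pairs are so rare that 0 is uninformative here. Pairs with inexact letters were not searched for, so the printed stretches may hold them. Promoters with the motif belonged to genes whose level was higher after I/R in young mice (Plin2, Plin5) and to Ucp3, whose level was not, and such a match describes the window only.

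The libraries differ in depth and content. They hold 92200, 102883, 100342 and 91124 barcodes with 25836175, 39673199, 41356670 and 66767829 UMIs, and 7.44% to 7.92% of the barcode sequences of a library also occur in another library. Sums of 15 cardiomyocyte marker genes were 98751, 85134, 89431 and 110886 counts per 1000000 UMIs (CPM), with every marker detected in every library. The labels also name endothelial cells, fibroblasts and macrophages, and their marker sums were 809 to 1260, 1012 to 1694 and 264 to 478 CPM. Neutrophil markers, 8 genes, summed to 14.8, 103, 24.9 and 102 CPM, and 8 of 8 were at least 2-fold higher after I/R in each age. No UMI minimum was applied to these markers, and 1 of them had 0 UMIs in young sham. Among all genes with at least 20 UMIs over the compared libraries, 3.26% were at least 2-fold higher in young I/R and 5.65% in aged I/R. Mural, lymphocyte and erythroid marker sums were 574 to 787, 1.76 to 8.97 and 1025 to 2567 CPM. The 11 fat cell markers summed to 26.0, 32.3, 31.7 and 24.5 CPM, of which Cidea gave 21.5, 30.1, 27.3 and 22.8, and the fat cell perilipin Plin1 and Cidec had at most 0.348 and 0.271 CPM in any library.

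Angptl4 (chromosome 17, 33773750 to 33781830, GRCm38) encodes a secreted inhibitor of lipoprotein lipase, the enzyme that frees fatty acids from circulating triglyceride. It had 11.0, 61.4, 5.59 and 5.09 CPM from 285, 2437, 231 and 340 UMIs. Young I/R stood far above the other libraries, and the aged libraries were lowest with exact Poisson 95% intervals that overlap (4.89 to 6.35 and 4.57 to 5.66 CPM). Such intervals, here and below, cover counting error only. In young mice I/R stood over sham by a log2 ratio of 2.48 (95% interval 2.30 to 2.66), and in aged mice the ratio was -0.13 (-0.38 to 0.11). Aged I/R over young I/R was -3.59, ranked 3 from the lowest among 16471 genes. In sums over tissue, a lower level can come from fewer cells of a type or from less RNA per cell, and these cannot be told apart.

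**Figure D1:**
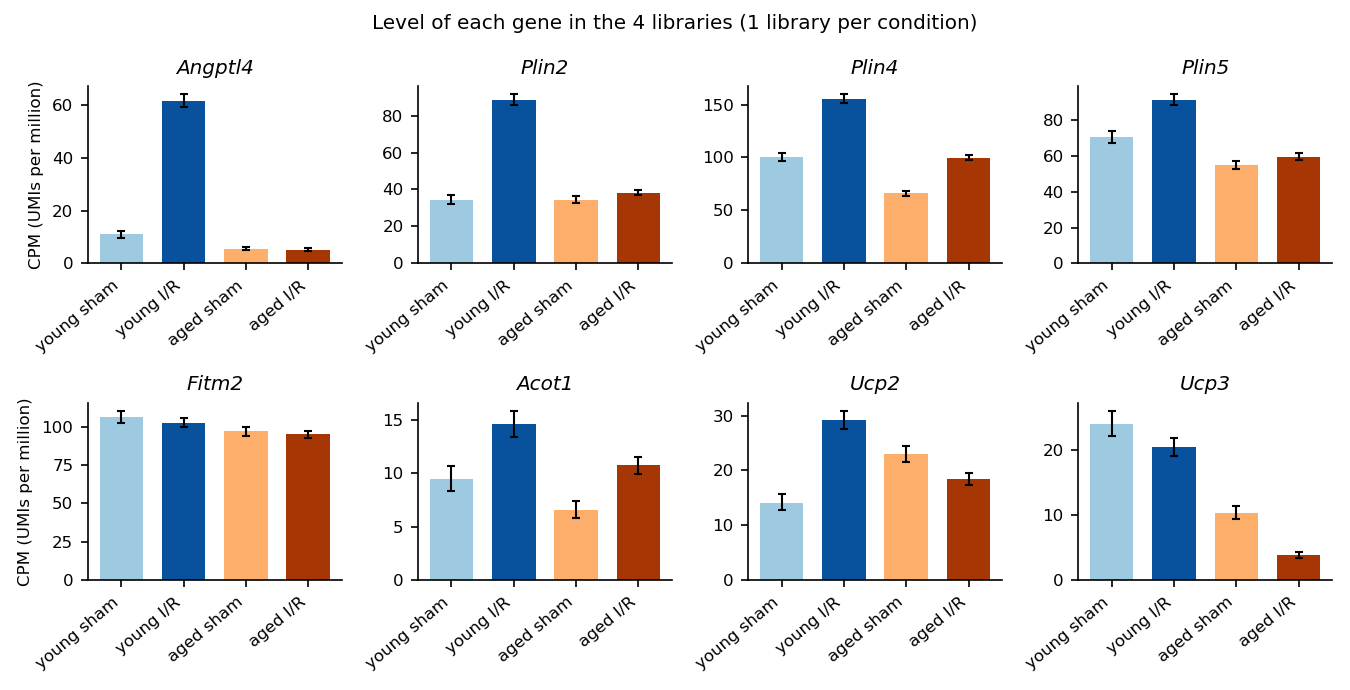
Level of each of the 8 genes in CPM (UMIs scaled to a library total of 1000000, linear axis from 0) in the sham and I/R libraries of each age, with exact Poisson 95% intervals for counting error as bars. Angptl4 and Plin2 stand out in young I/R at 61.4 and 88.5 CPM, Fitm2 stays between 94.99 and 106 CPM, and Ucp3 is lowest in aged I/R at 3.82 CPM.

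Among the coat proteins of the lipid droplet, Plin2, Plin4 and Plin5 differed in how far they followed this pattern. Plin2 (chromosome 4, 86648386 to 86670060), the perilipin found on droplets of most tissues, had 34.5, 88.5, 34.4 and 38.3 CPM from 892, 3510, 1422 and 2559 UMIs. Both sham libraries were level, and young I/R was more than 2-fold above each other library. After I/R its log2 ratio over sham was 1.36 (1.25 to 1.47) in young and 0.16 (0.06 to 0.25) in aged mice. Plin4 (chromosome 17, 56100591 to 56109803), a perilipin abundant in fat, heart and muscle, had 100.1, 155.6, 66.1 and 99.6 CPM from 2587, 6172, 2735 and 6653 UMIs. By total UMIs the level was higher after I/R by much the same ratio in both ages, 0.64 (0.57 to 0.70) in young and 0.59 (0.53 to 0.66) in aged mice. The difference of these ratios was 0.04 (-0.05 to 0.14). The aged I/R level of Plin4, 99.6 CPM, was within counting error of the young sham level, 100.1 CPM. Barcodes with at least 200 detected genes gave a lower young ratio, 0.29, with 0.55 in aged mice. They are unlike parts of the libraries, 28.4%, 55.2%, 67.9% and 98.8% of all barcodes.

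Plin5 (chromosome 17, 56111601 to 56117596), which lies next to Plin4 and encodes the perilipin that links droplets to mitochondria in oxidative tissue, had 70.5, 91.5, 55.3 and 59.8 CPM. Its ratios were smaller, 0.38 (0.29 to 0.46) in young and 0.11 (0.04 to 0.19) in aged mice, and aged levels were below young ones in sham and in I/R. Fitm2 (chromosome 2, 163466379 to 163472629), a protein of the endoplasmic reticulum needed to form droplets, had 106, 103, 97.0 and 94.99 CPM from 2744, 4072, 4011 and 6342 UMIs. Fitm2 was the most even of the 8 genes, with log2 ratios of -0.05 (-0.12 to 0.02) and -0.03 (-0.09 to 0.03) for I/R over sham in young and aged mice. Relative to the median of all genes, which was -0.51 in the young comparison, an even level is a high place in the ranking, 4013 of 15455 genes.

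The uncoupling protein genes differed from each other in pattern. Ucp2 (chromosome 7, 100493337 to 100502020), which is expressed in many tissues and in immune cells, had 14.1, 29.1, 23.0 and 18.4 CPM from 364, 1155, 951 and 1227 UMIs. The order was young sham, aged I/R, aged sham and young I/R, with no overlap of the intervals of neighbours. After I/R the level was higher in young mice (log2 1.05, 0.88 to 1.22) and lower in aged mice (-0.32, -0.45 to -0.20). In sham hearts Ucp2 was higher in aged than in young mice (0.71, 0.53 to 0.89), the 1 gene of the 8 with an interval above 0 by total UMIs. Beside it, the macrophage marker sum was 372, 264, 442 and 478 CPM, and its part in the Ucp2 levels was not tested. The neutrophil marker sum was 14.8, 103, 24.9 and 102 CPM, and its part in them was not tested either.

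Ucp3 (chromosome 7, 100472990 to 100486432), the muscle and heart form, had 24.0, 20.4, 10.3 and 3.82 CPM from 620, 809, 427 and 255 UMIs. Levels went down from young sham to aged I/R, with no overlap between the intervals of neighbours. I/R over sham gave a log2 ratio of -0.23 (-0.39 to -0.08) in young and -1.43 (-1.66 to -1.21) in aged mice, and that of aged over young sham was -1.22 (-1.40 to -1.04). Aged I/R over young I/R was -2.42 (-2.63 to -2.21), ranked 17 from the lowest of 16471 genes. Gm10603, an antisense gene that overlaps Ucp3 over 1857 bases, had 81, 64, 38 and 40 UMIs, and since use of strand in the counting is not stated, reads of these genes may not be fully separated. Ucp2 overlaps Dnajb13 over 305 bases, and Dnajb13 had at most 13 UMIs in a library. Overlaps of Plin4 with Hdgfl2 (17 bases) and of Fitm2 with 2310001K24Rik (673 bases) carry the same limit.

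Acot1 (chromosome 12, 84009490 to 84018371) encodes a cytosolic thioesterase that releases fatty acids from acyl-CoA. It had 9.44, 14.6, 6.53 and 10.7 CPM from 244, 579, 270 and 717 UMIs. The level was higher after I/R in both ages, by 0.63 (0.41 to 0.85) in young and 0.72 (0.51 to 0.93) in aged mice, and young sham and aged I/R overlapped. Acot2, a near-identical neighbour that encodes the mitochondrial form, had 63.0, 92.2, 72.6 and 59.7 CPM, and the counting may split reads between them. With the UMIs of both genes added, the young ratio was 0.56 and the aged ratio -0.17. Aged over young sham turned from -0.53 to 0.13. Acot2 has most of the summed UMIs and by itself gave 0.55, -0.28 and 0.21, so the sum mainly shows Acot2. The sum cannot show how reads were split. That split was not tested, and the values of Acot1 in aged mice stay uncertain for this reason.

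**Figure D2:**
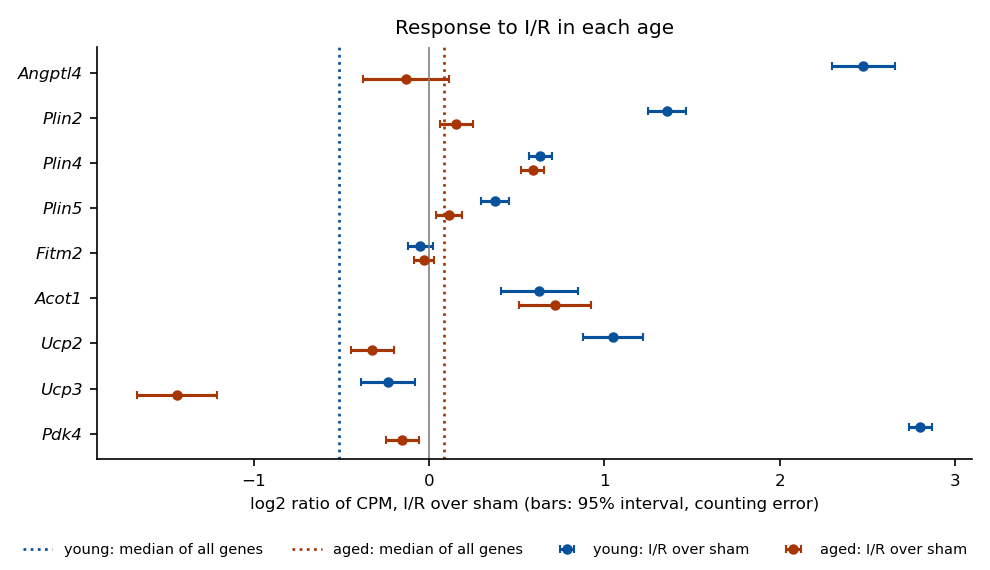
log2 ratio of CPM in I/R over sham for the 8 genes and Pdk4 in young (blue) and aged (brown) mice, with 95% intervals for counting error as bars and the median of all genes as dotted lines (-0.51 young, 0.09 aged). Angptl4, Plin2 and Ucp2 lie at 1.05 or more in young mice and between -0.32 and 0.16 in aged mice. By these total UMIs Plin4, Fitm2 and Acot1 have like values in both ages, although the aged values of Acot1 are uncertain.

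In the comparison of young I/R with young sham, 3 of the 8 genes (Angptl4, Plin2 and Ucp2) were at least 2-fold higher, against 3.26% of the 15465 genes that reached 20 UMIs in the 2 libraries together. At least 2-fold lower were 0 of 8, against 27.0% of all genes. The median log2 ratio was 0.63 over the 8 genes and -0.51 over all genes. Genes whose length on the genome lay within the range of the 8 (5996 to 21675 bases) had a median of -0.41. Most genes thus had lower CPM in young I/R, where Gm42418, a transcript rich in ribosomal RNA sequence, took 19.4% of the UMIs in place of 11.5% in young sham the 13 mitochondrial genes 14.1% in place of 10.0% and Malat1 2.22% in place of 7.34%. With these transcripts left out of the totals the median of all genes was -0.37. With libraries scaled by the median of gene-wise ratios, which adds 0.41 to every log2 ratio of this comparison, 6.27% of genes were higher and 14.6% lower, and Plin4 (1.04) and Acot1 (1.03) also reached 2-fold. Under this scaling Ucp3 changed sign, from -0.23 to 0.17. Shares of Gm42418, mitochondrial genes and Malat1 move with the libraries, and their part in the levels of these genes was not tested beyond such rescaling.

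In aged I/R over aged sham, 0 of 8 genes were at least 2-fold higher, against 5.65% of all genes, and 1 of 8, Ucp3, was at least 2-fold lower, against 3.02%. The median was 0.04 over the 8 genes and 0.09 over all 16760 genes with a ratio. Counting intervals lay above 0 for 4 genes (Acot1, Plin4, Plin2 and Plin5), below 0 for Ucp2 and Ucp3, and held 0 for Angptl4 and Fitm2. Plin5, the smallest of the 4, ranked 7985 from the highest of 16760 genes, so a ratio above 0 was common. The share of all genes with such intervals is not given here. Gene-wise scaling added -0.09 here and left the counts at 0 and 1, against 4.62% and 3.74% of all genes.

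The responses to I/R in the ages, young minus aged, differed at least 2-fold in the direction of the young for 4 of 8 genes, against 4.09% of all genes, and for 0 of 8 in the direction of the aged, against 33.8%. The difference of log2 ratios was 2.61 (2.31 to 2.91) for Angptl4, 1.37 (1.16 to 1.58) for Ucp2, 1.20 (1.06 to 1.34) for Plin2 and 1.20 (0.93 to 1.47) for Ucp3. For Angptl4 and Plin2 most of the difference lies in the young ratio, for Ucp3 most lies in the aged ratio, and for Ucp2 the young ratio of 1.05 and the aged ratio of -0.32 both enter. Plin5 differed by 0.26 (0.15 to 0.37). For Plin4, Acot1 (-0.09, -0.39 to 0.21) and Fitm2 (-0.02, -0.11 to 0.07) the interval held 0. The median over the 8 genes was 0.73 and that over all genes -0.60, with -0.40 over genes within the length range of the 8. Gene-wise scaling adds 0.50 to each difference, which leaves 4 and 0 of the 8 genes past 2-fold and 11.4% and 18.6% of all genes. Under it Plin4 came to 0.54, Fitm2 to 0.48 and Acot1 to 0.41, each above its counting interval.

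**Figure D3:**
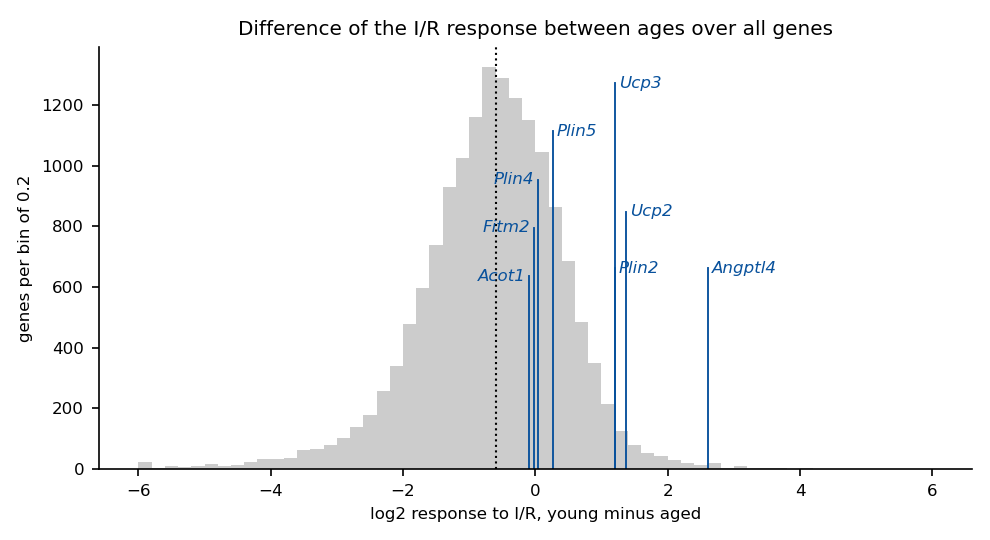
Number of genes by the difference of the log2 response to I/R between ages (young minus aged, bins of 0.2, values past the axis placed in the end bins), with the median of all genes dotted at -0.60 and the 8 genes as blue lines. Angptl4 lies at 2.61, Ucp2 at 1.37, Plin2 and Ucp3 at 1.20, and the other 4 genes between -0.09 and 0.26, all above the median.

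Age itself was compared in each state. In aged sham over young sham, 0 of 8 genes were at least 2-fold higher, against 3.48% of all genes, and 1 of 8, Ucp3, was at least 2-fold lower, against 7.21%, with Angptl4 just short of it at -0.98 (-1.24 to -0.73). Plin4 was at -0.60 (-0.68 to -0.52), Acot1 at -0.53, Plin5 at -0.35 and Fitm2 at -0.13, while Plin2 was at -0.01 (-0.13 to 0.12), and at 0.14 after gene-wise scaling. Their median was -0.44, and that of all genes was -0.14, with 4.68% of genes higher and 5.27% lower after gene-wise scaling, under which Fitm2 came to 0.011. In the 20000 barcodes with most UMIs per library, Ucp2 reached 1.01 and Angptl4 -1.11. There 1 gene was 2-fold higher, against 3.52% of all genes, and 2 were 2-fold lower, against 8.09%.

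In aged I/R over young I/R, 0 of 8 were at least 2-fold higher, against 21.3% of all genes, and 3 of 8 (Angptl4, Ucp3 and Plin2) were at least 2-fold lower, against 1.58%. All 8 genes were lower in aged I/R with intervals below 0, from Fitm2 at -0.11 (-0.17 to -0.05) to Angptl4 at -3.59 (-3.76 to -3.43). Fitm2 ranked 2720 from the lowest of 16471 genes, and the share of all genes with such intervals is not given here. The median over the 8 genes was -0.65 and that over all genes was 0.47, with 0.34 over genes within the length range of the 8. Gene-wise scaling adds -0.36 here, which puts Ucp2 (-1.02) past 2-fold as well, and leaves 11.7% of all genes higher and 3.71% lower. The I/R libraries enter both this comparison and the responses above, so these values are not independent of each other.

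**Figure D4:**
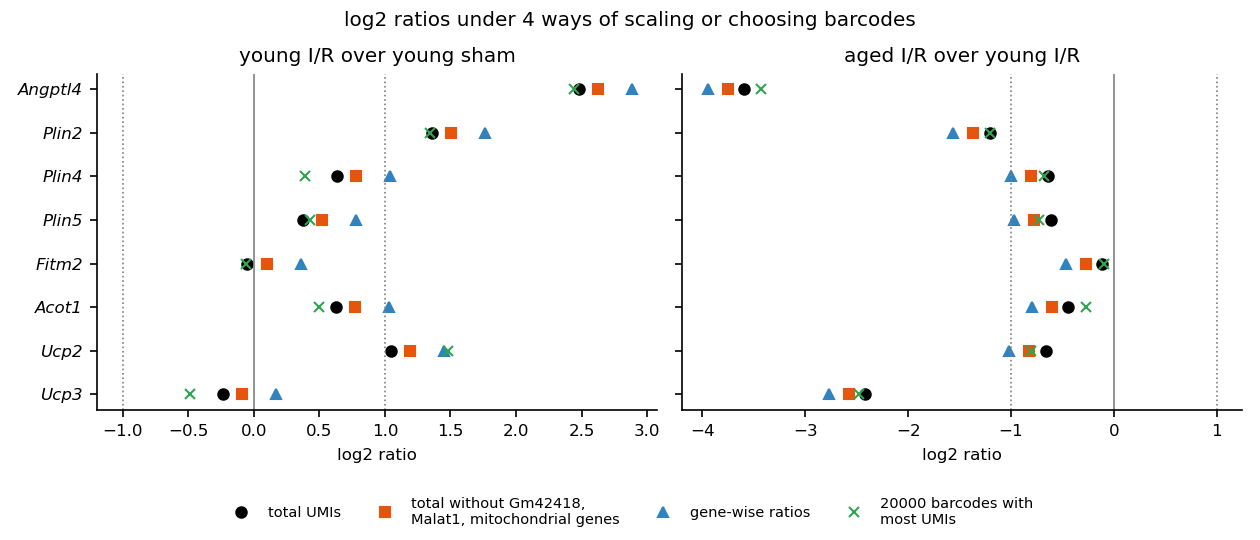
log2 ratios of the 8 genes in young I/R over young sham (left) and aged I/R over young I/R (right) by total UMIs, by totals without Gm42418, Malat1 and mitochondrial genes, by gene-wise ratios and in the 20000 barcodes with most UMIs, with dotted lines at 2-fold and a solid line at 0. Gene-wise ratios move every gene by 0.41 on the left and by -0.36 on the right, and Angptl4 stays at 2.44 or more on the left and at -3.43 or less on the right.

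The 8 genes did not share 1 pattern. As Euclidean distance between log2 CPM values centred over the 4 libraries, Plin4 and Acot1 were the closest pair (0.16), then Plin4 and Plin5 (0.41), and Angptl4 and Fitm2 were the farthest apart (2.81). Among 13008 genes with at least 20 UMIs in each library and at least 200 in all, the gene nearest to Angptl4 was Pdk4 (0.28), with 76.3, 533, 39.1 and 35.2 CPM, and Hspb1 lay farther off (1.33). Nearest to Plin2 were Nop16 (0.15), 1110002E22Rik and Dusp5, and nearest to Plin4 were Gm17251 (0.11), Nop2 and Acot1. Nearest to Plin5 were Slc45a3 (0.07) and Ncs1, nearest to Fitm2 were Tbl2 (0.03), H13 and Tmem41b, and nearest to Acot1 were Nop2 (0.13), Zfp568 and Plin4. Nearest to Ucp2 were Sfn (0.04), Prmt1 and Nol6. Ucp3 had no close neighbour other than Tmem82 (0.42), followed by its own antisense gene Gm10603 (0.80) and Adamtsl2 (0.84). These distances rest on 4 libraries and describe likeness only.

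Levels of the receptors and coregulators were compared in the same way. Ppara had 42.8, 17.3, 19.4 and 32.0 CPM, so that its log2 ratio after I/R was -1.30 (-1.44 to -1.16) in young and 0.72 (0.60 to 0.84) in aged mice, opposite in sign to those of Ucp2. Ppargc1a, a coactivator of mitochondrial genes, had 119, 72.4, 83.8 and 135 CPM with ratios of -0.72 (-0.79 to -0.65) and 0.69 (0.63 to 0.75). Ppargc1b, its relative, had 97.3, 27.5, 52.2 and 57.0 CPM with ratios of -1.83 and 0.13. Of 14 receptors and coregulators, 0 were at least 2-fold higher and 4 at least 2-fold lower in young I/R, and 0 and 0 in aged I/R. The lower count in young I/R is near the 27.0% of all genes that were lower there. Shares over all genes were 3.26% higher in young I/R, and 5.65% higher and 3.02% lower in aged I/R. The counts of 0 are near these shares as well. The median over the 14 was -0.73 in young and 0.31 in aged mice, beside -0.51 and 0.09 over all genes. Genes longer than 21675 bases on the genome had medians of -0.60 in young and 0.16 in aged mice. The part of gene length in the medians of the 14 was not tested.

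Of 25 other PPAR alpha targets with enough UMIs, 1 was at least 2-fold higher and 0 lower in young I/R, and 0 higher and 1 lower in aged I/R. Their medians were 0.18 in young and -0.15 in aged mice, beside -0.51 and 0.09 over all genes. Over all genes 3.26% were higher and 27.0% lower in young I/R and 5.65% and 3.02% in aged I/R, so that the single higher and the single lower gene are near the shares of all genes. The higher one was Pdk4, a kinase that inhibits pyruvate dehydrogenase, at 2.80 (2.74 to 2.87) in young and -0.15 (-0.24 to -0.06) in aged mice. The lower one was Fabp3, the fatty acid carrier of the heart, at -1.07 (-1.08 to -1.06) in aged and 0.41 (0.40 to 0.43) in young mice. The large young response of Angptl4 and Pdk4 was thus not shared by most genes of the list, in which Acot2 is counted here as well as among the thioesterases, and whose other members lay between -0.73 (Cpt1a) and 0.90 (Cd36) in young mice, both named after their values were seen.

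Of 18 other lipid droplet and lipolysis genes, 1 was at least 2-fold higher in young I/R, 0 were lower, and in aged I/R 0 were past 2-fold either way. The shares over all genes given for the other PPAR alpha targets, 3.26% higher and 27.0% lower in young I/R and 5.65% and 3.02% in aged I/R, hold for this list and the next ones too. That gene was Pnpla2, the lipase that opens triglyceride breakdown on the droplet, with 121, 254.7, 132.8 and 154 CPM. Its ratios were 1.07 (1.02 to 1.13) in young and 0.21 (0.17 to 0.26) in aged mice, beside 1.36 and 0.16 for Plin2. Gpat3, an acyltransferase of triglyceride synthesis, had 12.6, 6.86, 7.69 and 6.96 CPM. Of 8 genes of the lipoprotein lipase system, on which Angptl4 acts, 0 passed 2-fold in either age, with medians of -0.25 and 0.16. Vldlr, a receptor for triglyceride-rich particles, was at -0.70 in young and -0.17 in aged mice. Lmf1, a lipase maturation factor, was at -0.84 and 0.04. In young mice, where the median of all genes was -0.51, 2 of the 8 had an interval above 0 and 5 had one below it. The share of all genes with such intervals is not given here. The 2 above 0 were Lpl, the lipase itself, at 0.52 (0.51 to 0.54) and Gpihbp1 at 0.59 (0.52 to 0.67), both named after their values were seen. In aged mice Lpl was at 0.025 and Gpihbp1 at 0.33. Of 9 other acyl-CoA thioesterases, 0 were higher and 1 lower in each age, Acot3, which had 10 to 21 UMIs per library, and Acot9, a mitochondrial form, was at 0.86 in young and -0.11 in aged mice. Of 5 other uncoupling and adenine nucleotide carriers, 0 were higher and 1, Slc25a27, was lower in young I/R (-2.01, -2.26 to -1.77), with 0.28 (0.12 to 0.45) in aged mice, and 0 passed 2-fold in aged mice. Slc25a4, the main adenine nucleotide carrier of the heart, was at 0.03 in young and 0.67 in aged mice, where Ucp3 was at -1.43.

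The UMIs of these genes were thinly spread over barcodes. In young I/R the 2437 UMIs of Angptl4 lay in 2389 barcodes (2.32% of all), and 47 barcodes held more than 1 UMI, where 31.5 would if UMIs fell in proportion to the total of each barcode. Plin2 had 68 such barcodes against 64.9 in that library, Pdk4 had 2058 against 2046, and Plin4 had more than this in every library, 82 against 42.7, 304 against 196, 63 against 41.5 and 316 against 264. Barcodes with at least 1 UMI of Pdk4 had 61.1 CPM of Angptl4 in young I/R, and those with 0 had 61.5. Marker sums were spread in much the same way: the variance over barcodes was 1.02 to 1.16 times the one of sampling by depth for endothelial, fibroblast and macrophage markers, 1.25 to 2.21 times for cardiomyocyte markers, and 11.6 to 31.6 times for erythroid markers. By these measures the UMIs of most of the genes and marker lists examined lay over the barcodes nearly in proportion to the total of each barcode. The cell type behind a level of these genes could thus not be read from the barcodes, and the groups of barcodes below are ranges of a score, not cell types.

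The levels were nevertheless followed along the share of cardiomyocyte marker UMIs, with the barcodes of each library in 5 equal groups. From the lowest to the highest group in young sham, Plin4 went from 70.7 (63.2 to 78.9) to 127 (118 to 137) CPM and Ucp3 from 17.8 (14.1 to 22.1) to 30.1 (25.8 to 34.9), while Ucp2 went from 18.7 (14.9 to 23.1) down to 9.92 (7.51 to 12.9). Plin4 also went from 55.8 to 77.0 CPM in aged sham. In the I/R libraries Plin4 (149.5 to 160.1 in young, 100.3 to 98.9 in aged), Ucp2 and Ucp3 had overlapping intervals at both ends. Angptl4 went from 67.6 to 56.8 CPM in young I/R, with intervals that overlap at the ends (61.8 to 73.7 and 51.6 to 62.3), and from 7.38 (5.93 to 9.07) to 3.42 (2.55 to 4.50) CPM in aged I/R. Young I/R stayed above the other libraries in each group for Angptl4, Plin2, Plin4, Plin5, Acot1 and Ucp2, but not for Fitm2 and Ucp3. Its intervals lay apart from those of the other libraries in every group for Angptl4, Plin2 and Plin4. Since UMIs lay nearly in proportion to barcode totals, differences between whole libraries would largely recur in each group. The order of the libraries within groups is thus no separate support for them. Over barcodes with at least 3 marker UMIs of endothelial cells, fibroblasts or macrophages, 96 levels were compared with those of the whole library, and 8 had an interval without the library level, 5 higher and 3 lower. With 95% intervals, some of 96 are outside by counting error alone, and at 5 marker UMIs 5 of 96 were. Groups held 37 to 6152 barcodes at 3 marker UMIs and as few as 1 at 5 marker UMIs. Intervals of small groups were too wide to set a level apart, so these counts do not show that levels were even.

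**Figure D5:**
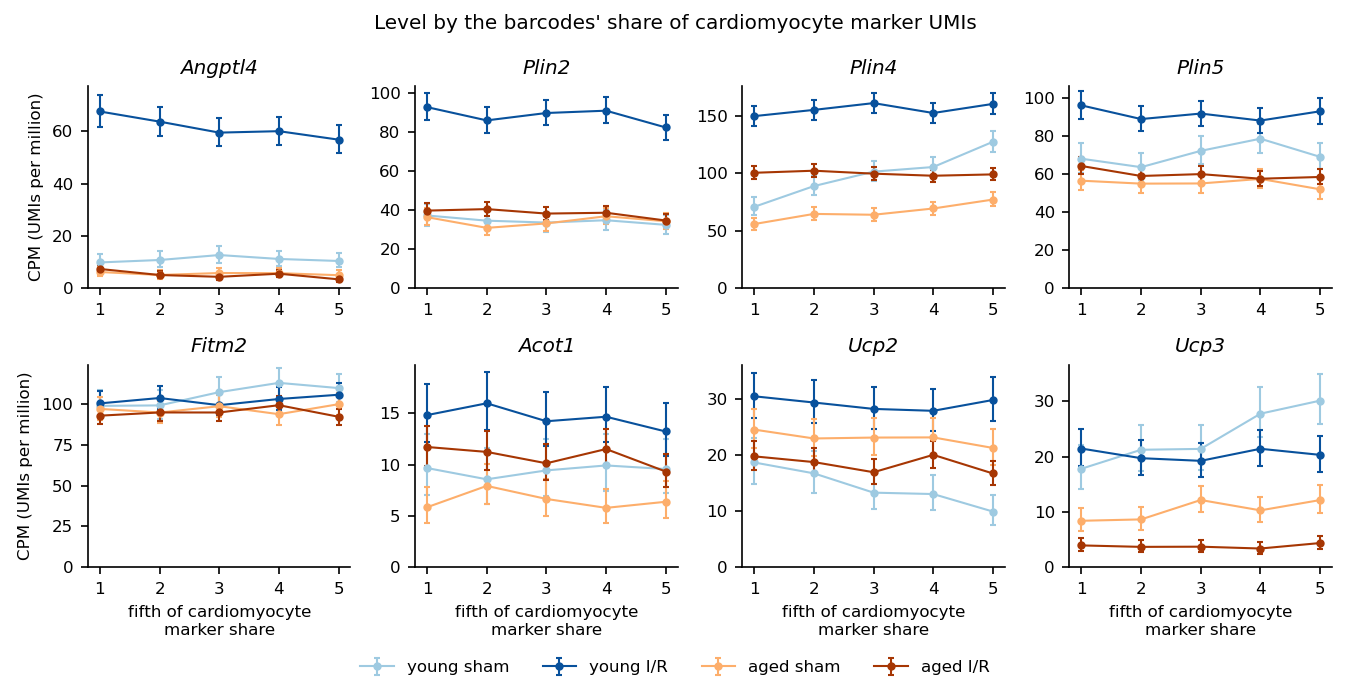
Level of each gene (CPM, linear axis from 0) in 5 equal groups of barcodes ordered by their share of cardiomyocyte marker UMIs, with 1 line per library and exact Poisson 95% intervals for counting error as bars. Plin4 and Ucp3 climb and Ucp2 declines in young sham. Young I/R lies above all other libraries in every group for Angptl4, Plin2, Plin4, Plin5, Acot1 and Ucp2, but not for Fitm2 and Ucp3. With UMIs spread nearly in proportion to barcode totals, differences between whole libraries would largely recur in each group.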

How the data were processed

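The deposited files are the filtered matrices of 4 libraries. As the authors deposited them, values are UMI counts per gene and barcode, whole and unscaled, made with Cell Ranger 6.0.2 on mm10 per the submitters' processing notes. Their filters beyond barcode calling and the use of strand are not given in the sources used here. Their clusters were not used. The 8 genes, the gene lists and the marker lists were chosen with earlier results of these data known.

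UMIs were summed over all barcodes of a library and divided by the library total (CPM). Ratios carry exact conditional 95% intervals, differences of ratios delta-method intervals, and levels exact Poisson intervals, all for counting error only. With 1 library per condition no test was run, and past 2-fold among genes with at least 20 UMIs over the compared libraries describes a gene. Named are the 8 genes, Ppara, Ppargc1a, Pdk4, the 2 genes per list with the largest I/R ratio, and the 3 nearest genes by pattern, and a few genes that this rule names are not reported here. Coordinates come from GENCODE (GRCm38), promoters from RefSeq. No doublets were removed. Python 3.11.15, numpy 2.4.6, scipy 1.17.1, pandas 2.3.3 and matplotlib 3.10.9 were used, and the calculations were tested on simulated data.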

Additional observations from a re-analysis of the deposited data

Results flagged for a closer look

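Ucp2 is listed here because its I/R response had opposite signs in the ages, with counting intervals on opposite sides of 0: higher in young I/R and lower in aged I/R, a difference of 1.37 on the log2 scale. With 1 library per condition this difference was not tested. It was between 1.21 and 1.87 under the alternatives, and the aged ratio stayed below 0 in each (-0.42 to -0.29).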

How the results depend on the processing

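No paired analysis was possible because each condition has 1 library, and for the same reason no library could be left out. The 4 genes with a 2-fold larger young response numbered 4 under all 9 alternatives, against 3.20% to 11.4% of all genes. All 8 genes passed with a minimum of 100 UMIs and with no minimum, so these alternatives could not move the count. The 1.5-fold alternative counts at its own fold, against 9.80% of all genes. A 2-fold larger aged response was found in 0 of the 8, against 18.6% to 34.8% of all genes. At 1.5-fold it was also 0 of the 8, against 50.6% of all genes. Of 274 single values recomputed, 182 stayed within their counting interval and 88 left it with the same sign or from an interval that held 0. Another 4 changed sign from an interval that did not hold 0. Sign changes from intervals that held 0 are not among these 4. With gene-wise scaling, 5 genes were 2-fold higher in young I/R (6.27% of all genes). Under it Ucp3 turned to 0.17 in young I/R over young sham and Fitm2 to 0.011 in aged over young sham. In the 20000 barcodes with most UMIs, 1 gene was higher (3.52% of all genes) and 2 were lower (8.09%) in aged over young sham. With 1.5-fold in place of 2-fold, 5 were higher in young I/R (6.36% of all genes), 2 higher in aged I/R (16.7%), 1 higher (8.99%) and 3 lower (19.8%) in aged sham, and 6 lower in aged over young I/R (4.38%). With equal weight of barcodes 2 genes were higher in young I/R (3.26% of all genes), since Ucp2 was at 0.92. With the UMIs of Acot2 added, the value for Acot1 turned to -0.17 in aged I/R and to 0.13 in aged over young sham. Most UMIs of that sum are those of Acot2, so these sign changes mainly show Acot2. With at least 5 marker UMIs, 5 of 96 levels lay apart from the library level in place of 8, over smaller groups of barcodes. Depth limits Acot1, Angptl4, Ucp2 and Ucp3 in young sham, where they had 244 to 620 UMIs. It also limits Angptl4 (231 UMIs), Acot1 (270) and Ucp3 (427) in aged sham, and Ucp3 (255) and Angptl4 (340) in aged I/R. The causes of these changes were not tested.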
